A study of Mus musculus with 6 samples.

Results

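The genes described here are 9 plasma membrane transporters for myo-inositol, taurine and amino acids, measured in mouse regulatory T cells (Tregs). They are Slc5a3, Slc6a6, Slc7a5, Slc3a2, Slc1a5, Slc7a1, Slc7a6, Slc38a1 and Slc38a2, and every probe set that the array platform's annotation gives to them was taken, 21 probe sets of 34945 with 1 gene listed and 9 genes of 18193. The members were chosen from earlier results of these same arrays, in which signals were compared between the groups, and which of those values counted is not recorded. All 3 comparisons are therefore treated as used in the choice. The members' values, intervals and calls past a threshold are given as a description, and no p-value is printed for them.

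Expression was measured on 6 arrays, in 3 groups of 2. All mice, controls included, were on the C57Bl/6 background, 8 to 11 weeks old, and carried the FoxP3GFP reporter. CD4+CD25+FoxP3+ cells were sorted from their spleens and lymph nodes. Wild-type A2AR+/+ cells were cultured for 18 h with the solvent DMSO (WT vehicle) or with 10 nM ATL1222, an agonist described by the submitters as selective for A2AR, a receptor for adenosine (WT ATL1222). A2AR-/- cells were cultured for 18 h with DMSO (KO vehicle). The labels call the 2 arrays of each group biological replicates. They name no promoter or Cre for the deletion and do not say whether replicates came from separate animals. How much of the spread between arrays lies between animals is therefore not known.

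Transporters of this kind set what a T cell can take up. Slc5a3 carries myo-inositol and Slc6a6 taurine, both of which cells accumulate as organic osmolytes, and myo-inositol is also the precursor of the phosphoinositides. The light chain encoded by Slc7a5 pairs with the heavy chain CD98, encoded by Slc3a2, to import leucine and other large neutral amino acids, which activated T cells need for mTORC1 signalling. The other members import or exchange glutamine, alanine, serine, arginine and lysine. A2AR couples to the stimulatory G protein and raises cAMP.

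Slc5a3 stood out among the 9. Its brightest probe set gave an array signal, an intensity on a linear scale, of 453 and 431 in KO vehicle, 613 and 471 in WT vehicle, and 1469.8 and 1255 with ATL1222. Both agonist arrays lay above all 4 vehicle arrays, and both knockout arrays lay below both WT vehicle arrays, the closest pair being 453 and 471. The group means were 442 ± 15.4 (SD, n = 2) in KO vehicle, 542 ± 101 in WT vehicle and 1362 ± 152 with ATL1222. With the agonist the signal was 2.48-fold that in WT vehicle, a log2 fold change of 1.31 ± 0.18 (SE) on the log2(signal + 16) scale used throughout. Within replicate 1 this log2 change was 1.24 and within replicate 2 it was 1.38. It ranked 27 from the highest among 10916 genes tested. In the knockout the log2 change from WT vehicle was -0.27 ± 0.18, with a 95% interval from -0.67 to 0.12. Between the agonist and KO vehicle the log2 change was 1.59 ± 0.18. These comparisons share arrays and are not independent of each other.

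**Figure D1:**
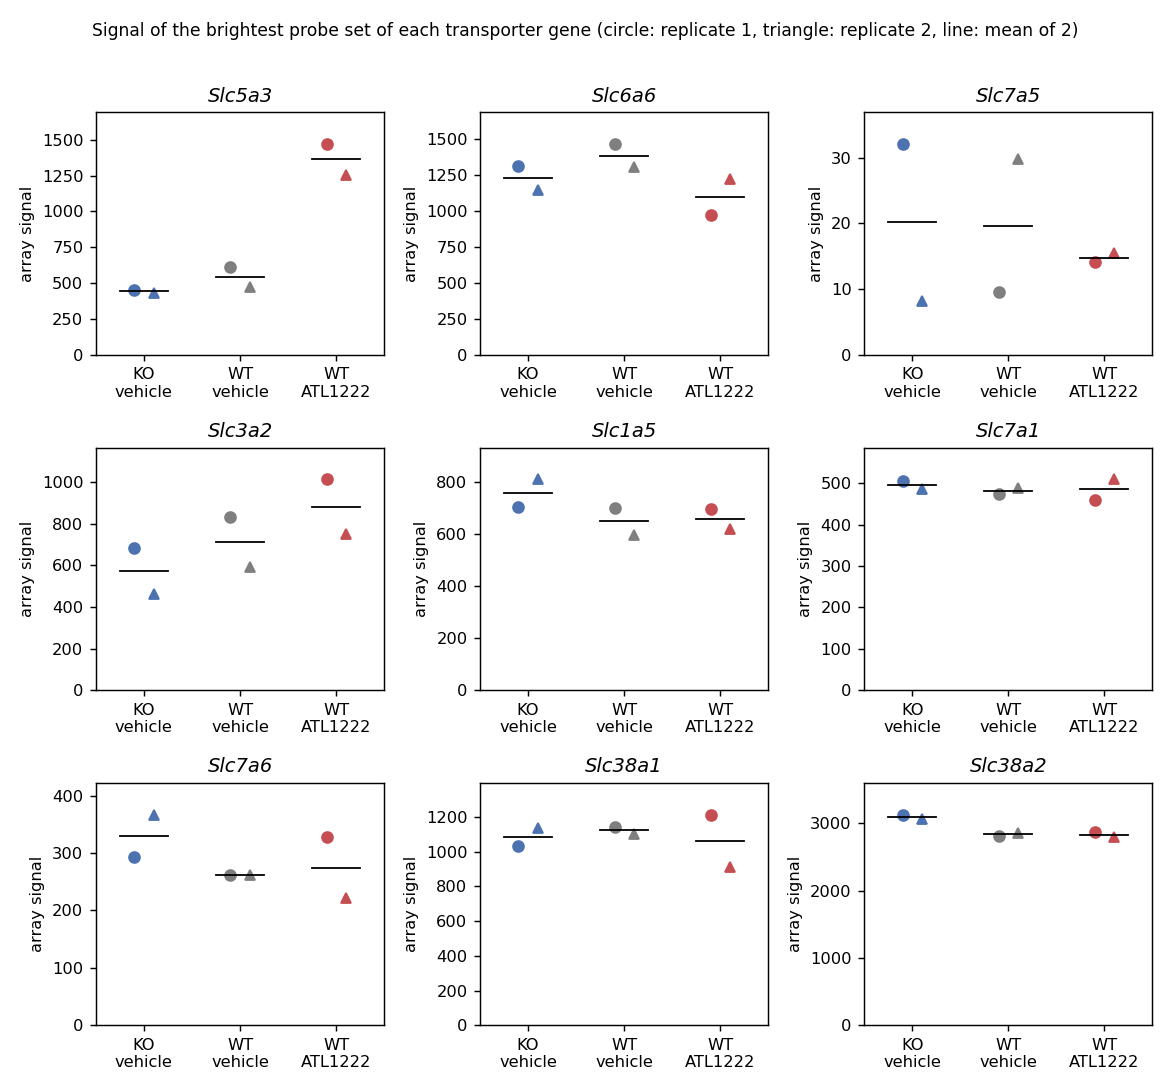
Array signal (linear scale from 0) of the brightest probe set of each of the 9 transporter genes in KO vehicle, WT vehicle and WT ATL1222; circles are replicate 1, triangles replicate 2 and lines the mean of 2 arrays. Slc5a3 lies at 1255 and 1469.8 with ATL1222 and between 431 and 613 on the other 4 arrays, while the signal of Slc7a5 never exceeds 32.1.

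Slc5a3 starts beside another gene and overlaps it. In the RefSeq annotation of mouse assembly GRCm38.p6 its start is 14 bases upstream of the start of Mrps6, which encodes a protein of the small mitochondrial ribosomal subunit, on the same strand of chromosome 16, so both genes share nearly the same promoter. The sequence before the start of Slc5a3 is shown because the windows of both genes share 236 bases, beside that of Slc38a2, an amino acid transporter whose signal was nearly equal with and without the agonist. Each is the 250 bases before the start, 5′ to 3′ on the gene's own strand, from chr16:92058072-92058321 (plus strand) for Slc5a3 and chr15:96699729-96699978 (minus strand) for Slc38a2. Capitals mark every match, on either strand, to the GC box GGGCGG or to TGACG, the core of the cAMP response element.
Slc5a3: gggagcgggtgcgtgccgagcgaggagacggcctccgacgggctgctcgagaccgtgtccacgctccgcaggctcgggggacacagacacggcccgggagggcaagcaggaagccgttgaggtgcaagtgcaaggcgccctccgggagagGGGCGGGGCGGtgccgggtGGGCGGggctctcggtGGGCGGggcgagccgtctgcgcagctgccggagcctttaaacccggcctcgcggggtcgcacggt
Slc38a2: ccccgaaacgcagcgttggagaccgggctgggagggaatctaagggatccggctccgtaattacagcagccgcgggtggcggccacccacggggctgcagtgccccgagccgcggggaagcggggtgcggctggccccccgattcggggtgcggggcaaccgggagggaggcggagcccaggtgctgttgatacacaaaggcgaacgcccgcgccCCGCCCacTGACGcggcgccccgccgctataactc

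The Slc5a3 window held 4 GC boxes, of which the first pair overlap by 1 base, within the last 100 bases before the start, and 0 matches to TGACG. The Slc38a2 window held 1 GC box and 1 match to TGACG. Over the 32851 promoter windows of the same length in the table, 32.7% held at least 1 GC box and 17.8% at least 1 core TGACG. Neither window held the full cAMP response element TGACGTCA (1.55% of windows), the amino acid response element TGATGNAA (3.45%), the E box CACGTG (6.02%) or the tonicity response element TonE (4.31%), each searched on both strands. Motifs outside these 250 bases were not searched.

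Mrps6 had its group means in the same order as the brightest probe set of Slc5a3. Mrps6 has 2 probe sets. The brighter one, whose suffix marks probes that can match transcripts of more than 1 gene, gave signals of 1032 and 792 in KO vehicle, 1192 and 1008 in WT vehicle, and 1662 and 1554 with ATL1222. The other gave 474 and 434 in KO vehicle, 606 and 660.4 in WT vehicle, and 911 and 924 with ATL1222. On both probe sets the agonist arrays lay above all vehicle arrays. Between ATL1222 and WT vehicle the log2 change of Mrps6 was 0.55 ± 0.17 by the brighter probe set and 0.52 ± 0.17 by the other, and the gene did not pass (limma adjusted p = 0.576, or adjusted p = 0.0753 with replicate number entered as a block). Between ATL1222 and KO vehicle it was 0.82 ± 0.17 by the brighter probe set (limma adjusted p = 0.0360, or adjusted p = 0.00195 with the block). This call was lost without KO vehicle replicate 2 (log2 0.63, adjusted p = 0.317), without WT ATL1222 replicate 1 (log2 0.77, adjusted p = 0.334) and without WT ATL1222 replicate 2 (log2 0.87, adjusted p = 0.138). It held in 11 of 17 alternatives, and was also lost with no filter on dim genes, without the variance trend and with every probe set tested separately. In that last fit the brighter probe set had an adjusted p = 0.0993 and the other an adjusted p = 0.0301, at log2 0.99 ± 0.17 (limma). Whether the probes of either gene detect transcripts of the other was not tested.

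**Figure D2:**
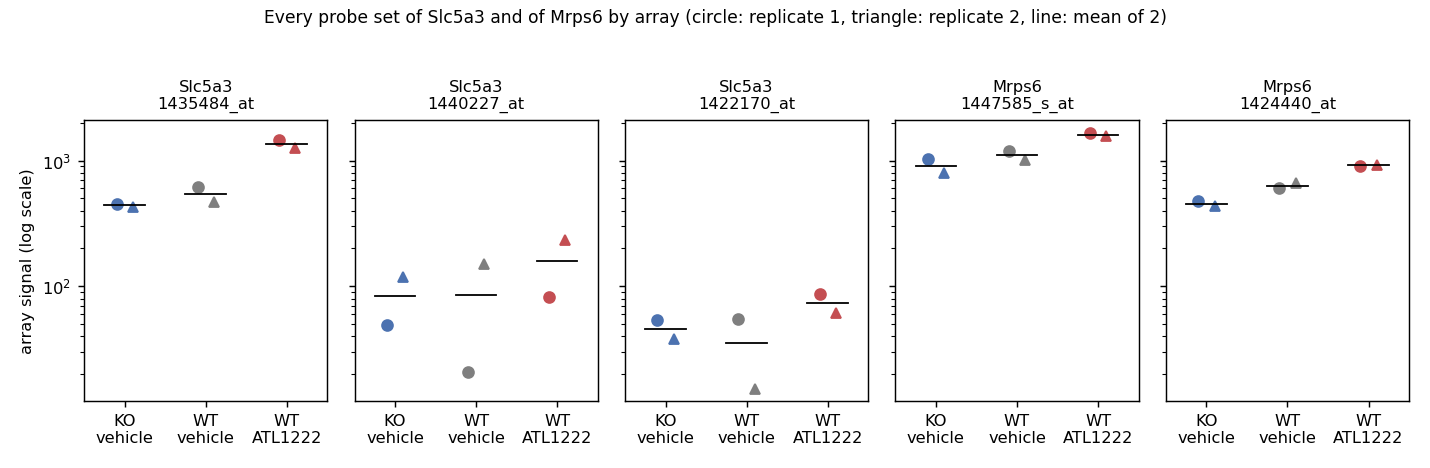
Array signal (log axis) of the 3 probe sets of Slc5a3 and the 2 of Mrps6 in the 3 groups; circles are replicate 1, triangles replicate 2 and lines the mean of 2 arrays. The brightest Slc5a3 probe set and both Mrps6 probe sets have their agonist arrays above every vehicle array, and the second Slc5a3 probe set is higher on replicate 2 in each group.

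The other probe sets of Slc5a3 were dim. The second gave 49.0 and 119 in KO vehicle, 20.8 and 150.2 in WT vehicle, and 82.9 and 233 with ATL1222. Replicate 2 was the higher array in each group, the groups overlapped, and the log2 change with the agonist was 1.01 ± 0.70. The dimmest gave 53.9 and 38.5, 54.9 and 15.4, and 86.8 and 61.7 in the same order, with both agonist arrays above the vehicle arrays. In the knockout the log2 change was 0.26 ± 0.70 by the second probe set and 0.39 by the dimmest, against -0.27 by the brightest. On both dimmer probe sets the knockout overlapped with WT vehicle. With the 3 probe sets averaged, the log2 change of Slc5a3 with the agonist was 1.08 and no longer past the threshold.

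Of the 9 genes, 8 were bright enough to be tested, and Slc7a5 was not. In WT ATL1222 against WT vehicle 1 of the 8 passed limma's threshold of adjusted p under 0.05, Slc5a3, where 0.211% of all genes passed. With the replicate number as a block it was again 1, where 0.715% passed. Without WT vehicle replicate 2 or without WT ATL1222 replicate 1 the count was 0, with Slc5a3 at log2 1.13 and 1.198. The other 7 had log2 changes from -0.34 to 0.31, with a median of 0.01 where that of all genes was -0.01. In KO vehicle against WT vehicle 0 of the 8 passed limma's threshold and 0 had an unadjusted p under 0.05, where 0.0275% of all genes passed and 3.88% had such an unadjusted p, and with the block 0 passed, where 0.0824% did. In WT ATL1222 against KO vehicle 1 passed, Slc5a3, where 0.98% of all genes did, and with the block 2 passed, Slc5a3 and Slc3a2, where 2.35% did. Groups that did not overlap were found for 4 of the 8 genes in KO vehicle against WT vehicle, 2 in WT ATL1222 against WT vehicle and 4 in WT ATL1222 against KO vehicle, where 29.5%, 30.8% and 38.2% of all genes showed the same. Since these comparisons were used in the choice of genes, nothing is read from the counts.

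**Figure D3:**
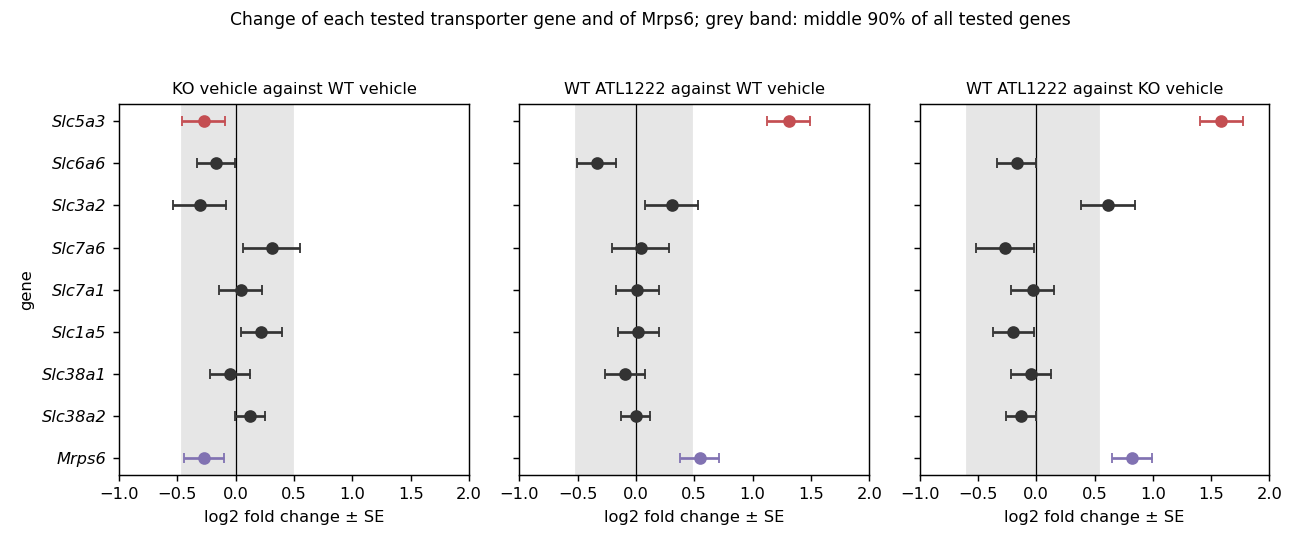
Log2 fold change (x axis, ± SE from limma) of the 8 tested transporter genes and of Mrps6 in each of the 3 comparisons; the grey band spans the middle 90% of all tested genes. With ATL1222 Slc5a3 lies at 1.31 against WT vehicle and 1.59 against KO vehicle, and the other 7 transporters lie between -0.34 and 0.31 against WT vehicle.

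Slc6a6, the taurine transporter and the other osmolyte carrier of the group, did not follow Slc5a3. Its brightest probe set gave 1318 and 1147 in KO vehicle, 1467 and 1305 in WT vehicle, and 976 and 1222 with ATL1222. The agonist arrays lay below the WT vehicle arrays, at a log2 change of -0.34 ± 0.16 (95% interval -0.69 to 0.02), and overlapped with the knockout. The next probe set gave 565 and 571 in KO vehicle, 628 and 761 in WT vehicle and 647 and 770.5 with ATL1222. There the agonist and WT vehicle overlapped (log2 0.03 ± 0.18), so the probe sets of this gene disagreed on the agonist, and the knockout was the lowest group (log2 -0.28 ± 0.18). Its remaining pair of probe sets was dim, with signals from 3.79 to 77.8.

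CD98 and its partners were next. Slc3a2, the CD98 heavy chain that the light chains need to reach the cell surface, has 1 probe set, with signals of 683 and 464 in KO vehicle, 833 and 591 in WT vehicle, and 1013 and 749 with ATL1222. Replicate 1 was the higher array in every group, and the order of the groups was the same within replicate 1 and within replicate 2. The log2 change was 0.31 ± 0.23 with the agonist (0.28 and 0.33 within replicates 1 and 2) and -0.31 ± 0.23 in the knockout (-0.28 and -0.34). WT vehicle overlapped with both other groups. Between ATL1222 and KO vehicle, where the groups did not overlap, the log2 change was 0.62 ± 0.23 (0.56 and 0.67 within replicates), and this is the member that passed only with the replicate block.

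Slc7a5, the LAT1 light chain, was read by 1 probe set at signals from 8.26 to 32.1, below the limit of about 71.2 that marked the lowest 40% of genes. The groups overlapped, and no change is given. A low signal on 1 probe set says nothing of how much LAT1 the cells held.

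Slc7a6, the y+LAT2 light chain, which exchanges arginine and lysine for glutamine and also pairs with CD98, had disagreeing probe sets. The brighter over all arrays gave 293 and 367 in KO vehicle, 262.3 and 261.8 in WT vehicle, and 328 and 222 with ATL1222, with a log2 change of 0.04 ± 0.25 for the agonist. The agonist arrays lay on either side of WT vehicle. The other gave 330.04 and 292 in KO vehicle, 366 and 256 in WT vehicle, and 245 and 118 with ATL1222, where both agonist arrays were the lowest, at log2 -0.79 ± 0.32.

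Slc7a1, the CAT1 importer of arginine and lysine, was flat. Its brightest probe set gave 505 and 486 in KO vehicle, 473 and 488 in WT vehicle, and 461 and 509 with ATL1222. The groups overlapped in all comparisons, with log2 changes of 0.04 ± 0.18 in the knockout and 0.01 ± 0.18 with the agonist, and 95% intervals from -0.35 to 0.43 and from -0.38 to 0.40. Its next probe set ranged from 360.5 to 466 with log2 changes of -0.03 ± 0.21 and 0.08 ± 0.21, and the dimmest gave 8.63 to 98.2.

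Slc1a5, the ASCT2 exchanger of glutamine, serine and alanine, gave 704 and 808 in KO vehicle, 699.6 and 596 in WT vehicle, and 695 and 618 with ATL1222 on its brighter probe set. The agonist and WT vehicle overlapped (log2 0.02 ± 0.18), and the knockout arrays lay just above both (log2 0.22 ± 0.18 against WT vehicle). The dimmer probe set, at 136 to 175, had both its knockout arrays (136 and 144) and its agonist arrays (140.9 and 140.99) below WT vehicle (167 and 175) instead, at log2 -0.26 ± 0.29 for each, so the probe sets disagreed.

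The sodium-coupled neutral amino acid transporters SNAT1 and SNAT2 completed the group. Slc38a1 gave 1032 and 1136 in KO vehicle, 1139 and 1103 in WT vehicle, and 1211 and 909.7 with ATL1222. The groups overlapped in all comparisons, with log2 changes of -0.05 ± 0.17 in the knockout and -0.09 ± 0.17 with the agonist. Its other probe set, at 460.2 to 593, had a log2 change of 0.23 ± 0.19 with the agonist.

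Slc38a2, the glutamine and alanine importer that cells induce when amino acids or osmolarity change, was the member with the smallest standard error of a log2 change. It gave 3128 and 3060.5 in KO vehicle, 2814 and 2858 in WT vehicle, and 2865 and 2792 with ATL1222. Agonist and WT vehicle overlapped, at a log2 change of 0.00 with a 95% interval from -0.28 to 0.27. Both knockout arrays lay above the other 4, at log2 0.12 ± 0.13 against WT vehicle. On the second probe set the knockout arrays were again the highest, with 989 and 1190.3 in KO vehicle, 839 and 814 in WT vehicle, and 802 and 905 with ATL1222, at log2 0.39 ± 0.16 in the knockout. The third, at 75.8 to 153, overlapped.

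Within the family the genes did not share 1 pattern over the arrays. Pearson correlations of log2 values over the 6 arrays, given only as a description of 28 pairs, ran from -0.91 for Slc7a1 with Slc38a1 to 0.83 for Slc1a5 with Slc7a6. For Slc5a3 the correlation was 0.77 with Slc3a2 and -0.62 with Slc38a2. The genes most like Slc5a3 over all genes tested were H2az1, the histone variant H2A.Z, with r = 0.99, Fth1, the ferritin heavy chain, with r = 0.99, Vps37b, a subunit of the sorting complex ESCRT-I, with r = 0.99, the signal transducer Stat5a with r = 0.99, and the vesicle fusion protein gene Stx11 with r = 0.99. Their log2 changes with the agonist ran from 0.57 for Stat5a to 1.31 for Vps37b. Mrps6 had r = 0.95 and ranked 91 of 10915 genes. With 2 arrays a group, such values can follow the group means or differences between replicates: Slc7a1 and Slc38a1 had overlapping groups, and their opposite ATL1222 arrays (461 and 509 against 1211 and 909.7) weigh in their value.

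The wider transport machinery was followed through 7 lists with 129 tested genes, a few of them in more than 1 list. The lists were chosen with earlier results of these same arrays known. Their counts and adjusted p-values are therefore a description and not independent support. Of 25 other amino acid transporters 0 passed limma's threshold in any comparison, without or with the block, and 1, 1 and 0 had an unadjusted p under 0.05 in the knockout, with the agonist and between these groups. Over all genes 3.88%, 4.99% and 8.46% had an unadjusted p under 0.05 in these comparisons, shares that stand beside the same counts for each list. Their median log2 change was 0.17 in the knockout and 0.01 with the agonist. The farthest in the knockout were Slc1a2, a glutamate transporter, at log2 0.84 ± 0.35 and Slc7a4 at 0.79 ± 0.38. With the agonist they were the Slc36 family member Slc36a3 at -1.32 ± 0.47 and the ASCT1 gene Slc1a4 at -0.75 ± 0.45. Slc36a3 was dim, at 31.6 and 41.2 with ATL1222 and 80.1 to 135 on the vehicle arrays. Its agonist arrays lay below the limit of about 71.2, so it passed the filter only through the vehicle arrays. Slc1a4 was also dim, at 51.8 to 135, and so were Slc7a4 at 60.5 to 168 and Slc1a2 at 91.2 to 235.

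Of 10 genes of the osmotic response 0 passed in any comparison, without or with the block, and 0, 1 and 1 had an unadjusted p under 0.05 (3.88%, 4.99% and 8.46% of all genes). Nfat5, the transcription factor that drives Slc5a3 and Slc6a6 under hypertonic stress, named after its values were seen, gave signals of 440.3 and 543 in KO vehicle, 612 and 507 in WT vehicle, and 585 and 597 with ATL1222. The agonist arrays lay between the WT vehicle arrays (log2 0.08 ± 0.19). The kinase gene Oxsr1 had the largest change with the agonist, at log2 -0.45 ± 0.21, followed by the chaperone gene Hspa1b at 0.40 ± 0.46. In the knockout Hspa4l lay at -0.38 ± 0.24 and the ion cotransporter gene Slc12a2 at -0.28 ± 0.21.

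Of 17 genes of inositol metabolism 0 passed, without or with the block, and 1, 0 and 2 had an unadjusted p under 0.05 (3.88%, 4.99% and 8.46% of all genes). The kinase gene Pi4k2b had a log2 change of 0.70 ± 0.34 and the phosphatase gene Inpp5a of -0.48 ± 0.25 with the agonist, and in the knockout Inpp1 lay at 0.43 ± 0.18 and Pi4k2b at 0.31 ± 0.34. The lists for osmotic response and inositol metabolism had median log2 changes of 0.03 and -0.02 with the agonist.

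The genes that respond to amino acid shortage included 1 that passed. Of 24, 1 passed with the agonist and 0 others did, where 0.211% of all genes passed. In the knockout, with the agonist and between these groups 1, 1 and 2 had an unadjusted p under 0.05 (3.88%, 4.99% and 8.46% of all genes). The gene that passed was Cebpb, a transcription factor gene that is also responsive to cAMP. It rose with the agonist by log2 1.09 ± 0.20 (limma adjusted p = 0.0482) from 1205 ± 343 (SD, n = 2) to 2539 ± 360. This call was lost without WT vehicle replicate 2 (log2 0.80), without WT ATL1222 replicate 1 (log2 0.94) and without WT ATL1222 replicate 2 (log2 1.23). Between ATL1222 and KO vehicle Cebpb also passed, without and with the block, at log2 1.98. It was the 1 of the 24 that did, where 0.98% and 2.35% of all genes passed. Over the 17 alternatives this change ran from 1.74 to 2.15, and it did not pass without the variance trend. The same gene lay lower in the knockout by log2 -0.90 ± 0.20 (limma adjusted p = 0.704, or adjusted p = 0.0112 with the block, where 0.0824% of all genes passed). Asns, asparagine synthetase, a standard target of this response, had a log2 change of 0.48 ± 0.43 with the agonist, at dim signals from 63.6 to 129.6. The pseudokinase gene Trib3 had one of 0.60 ± 0.34 in the knockout. The list median was 0.03 with the agonist.

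Of 36 genes of mTORC1 nutrient sensing 0 passed limma's threshold in any comparison, and 0, 2 and 3 had an unadjusted p under 0.05 (3.88%, 4.99% and 8.46% of all genes). With the block 1 passed between ATL1222 and KO vehicle, where 2.35% of all genes did. This was Sesn1, of the sestrin family that restrains mTORC1, at log2 -0.56 ± 0.17 (limma adjusted p = 0.0358 with the block). Without KO vehicle replicate 2 it was at -0.28. Depdc5 of the inhibitory GATOR1 complex lay at -0.57 ± 0.36 and Wdr59 of GATOR2 at -0.56 ± 0.28 with the agonist. In the knockout Depdc5 lay at 0.50 ± 0.36 and the GATOR1 gene Nprl3 at 0.43 ± 0.37. With the agonist 11 of the 36 had positive log2 changes, where 48.6% of all genes did, with a median of -0.06 where that of all genes was -0.01.

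Of 14 genes that use amino acids, 1 passed with the agonist and 2 with the block, where 0.211% and 0.715% of all genes did. With the agonist and between ATL1222 and KO vehicle 2 and 2 had an unadjusted p under 0.05 (4.99% and 8.46% of all genes). Odc1, which makes polyamines from ornithine, rose by log2 1.41 ± 0.20 (limma adjusted p = 0.00941), from 5284 ± 2159 (SD, n = 2) to 13497 ± 366. Without WT ATL1222 replicate 1 it was at log2 1.39 and did not pass. Got1, the cytosolic aspartate aminotransferase, gave 322 and 292 in WT vehicle and 922 and 598 with ATL1222, a log2 change of 1.23 ± 0.24 (limma adjusted p = 0.0700, or adjusted p = 0.00552 with the block). Between ATL1222 and KO vehicle 2 passed, where 0.98% of all genes did. They were Odc1 (log2 2.58 ± 0.20, limma adjusted p = 1.58e-05) and Got1 (log2 1.43 ± 0.24, limma adjusted p = 0.00913). Got1 did not pass there without KO vehicle replicate 2 (log2 1.21) or without WT ATL1222 replicate 1 (log2 1.13). In the knockout 0 passed, with 1 at an unadjusted p under 0.05 (0.0275% and 3.88% of all genes). With the block 1 passed there, where 0.0824% of all genes did. This was Odc1, at log2 -1.16 (limma adjusted p = 0.0120 with the block). The taurine synthesis gene Cdo1 lay at 0.59 ± 0.49 in the knockout, at dim signals from 46.6 to 107.

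Of 8 regulators of the transporters, 0 passed against WT vehicle, with 1 at an unadjusted p under 0.05 in each comparison (3.88% and 4.99% of all genes). Between ATL1222 and KO vehicle 1 passed, where 0.98% of all genes did. Hif1a, the hypoxia-inducible factor, was higher with ATL1222 than in KO vehicle by log2 0.72 ± 0.14 (limma adjusted p = 0.0218). It did not pass there without KO vehicle replicate 2 (log2 0.66), without WT ATL1222 replicate 1 (log2 0.65) or without WT ATL1222 replicate 2 (log2 0.78). It lay at 0.40 ± 0.14 with the agonist and -0.32 ± 0.14 in the knockout against WT vehicle. Nedd4l, a ubiquitin ligase gene, lay at -0.42 ± 0.22 and -0.37 ± 0.22.

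**Figure D4:**
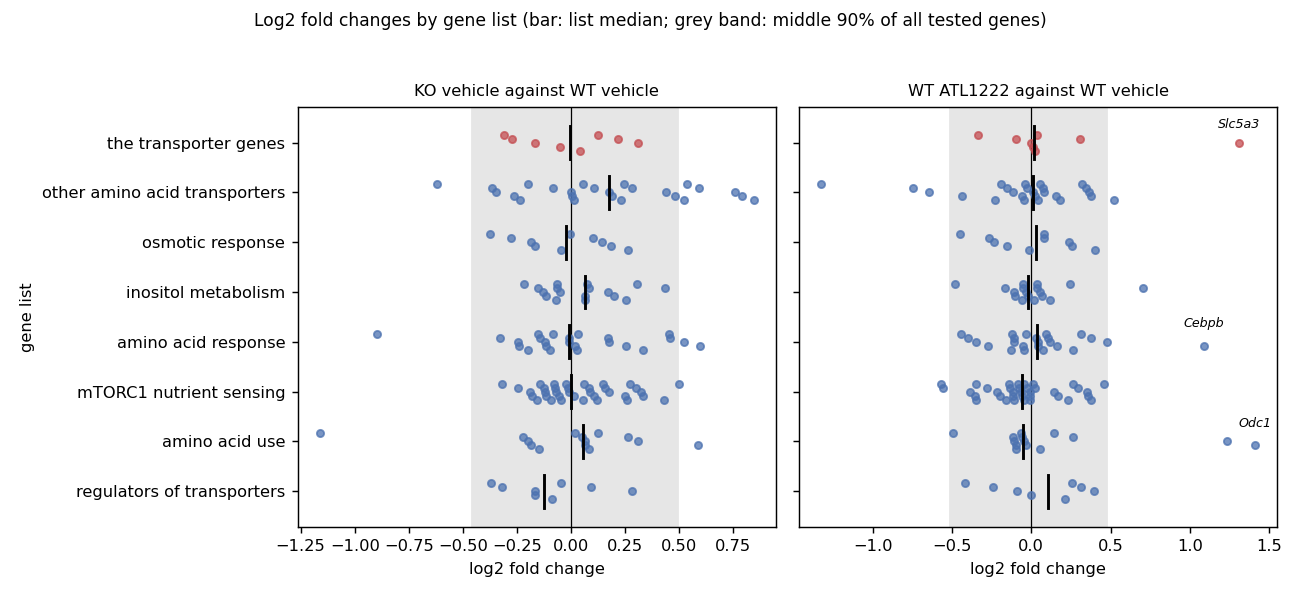
Log2 fold changes (x axis) of the 8 tested transporter genes and of 7 lists of related genes in KO vehicle against WT vehicle and in WT ATL1222 against WT vehicle; each point is a gene, bars are list medians and the grey band spans the middle 90% of all tested genes. Genes past limma's threshold are named: with the agonist these are Slc5a3, Cebpb and Odc1, and in the knockout there are 0.

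In RNA from whole cell populations, fewer cells of a type and less RNA per cell cannot be told apart, which touches every value above. Of 6 Treg and T cell markers, Ikzf2 ran from 6810 to 8431, Cd3e from 1848 to 3068 and Il2ra from 416 to 613. Foxp3 was dim on all arrays (7.18 to 53.5). The cells were sorted as FoxP3+, and a low probe set signal says nothing of how much Foxp3 they held. Ctla4 gave 5699 and 6410 with ATL1222, 3703 and 5125 in WT vehicle, and 3432 and 3759 in KO vehicle. It was the 1 of 5 tested that passed, between ATL1222 and KO vehicle (log2 0.75 ± 0.16, limma adjusted p = 0.0390), where 0.98% of all genes did. This call was lost when any 1 array of these groups was left out. Cd4 gave 339 and 488 with ATL1222, 136 and 343 in WT vehicle, and 305 and 435.01 in KO vehicle. Against WT vehicle 2 of the 5, Ctla4 (log2 0.47 ± 0.16) and Cd4 (log2 0.86 ± 0.34), had an unadjusted p under 0.05 with the agonist, where 4.99% of all genes did. Of 4 B cell markers 3 had a probe set, and their summed signal, nearly all of it Ighm, ran from 4462 to 4582 with ATL1222, 6672 to 7716 in WT vehicle and 7159 to 7330 in KO vehicle, so it was lowest where Slc5a3 was highest, while Cd79a stayed at or below 77.7. Ighm was lower with ATL1222 by log2 -0.71 ± 0.13 against WT vehicle (limma adjusted p = 0.0462) and by -0.72 ± 0.13 against KO vehicle (limma adjusted p = 0.0145). It was the 1 of 2 tested B cell markers that passed, where 0.211% and 0.98% of all genes did. Each call was lost when any 1 array of its groups was left out, and with the probe sets of Ighm averaged its log2 changes were -0.06 and 0.01. Ms4a1, the other tested B cell marker, went the other way, with 221 and 243 with ATL1222, 154 and 225 in WT vehicle and 150.04 and 227 in KO vehicle (log2 0.29 ± 0.29 against WT vehicle). For 5 markers of myeloid cells, 3 of dendritic cells, 4 of NK and CD8 T cells, 3 of stroma and 2 of erythroid cells the summed signals overlapped between ATL1222 and WT vehicle, the brightest being the stromal list at 434 to 566 in WT vehicle and 492 to 511 with ATL1222. In KO vehicle the NK and CD8 T cell list was higher (372 to 405) than in WT vehicle (234 to 333), as was the erythroid list (57.7 to 118, against 14.7 to 56.8). The erythroid list had 0 genes bright enough to be tested, and the NK and CD8 T cell list had 1. The part of any of these cell types in the results for the transporters was not tested. The ratio of 3′ to 5′ signal of Gapdh, a sign of RNA quality, was 1.21 and 1.45 with ATL1222, 1.36 and 1.45 in WT vehicle, and 1.39 and 1.29 in KO vehicle. That of beta-actin was 1.93 and 2.53 with ATL1222, 2.25 and 2.33 in WT vehicle, and 2.23 and 2.41 in KO vehicle. Median signals were 74.7 and 87.7, 76.9 and 98.2, and 84.1 and 96.3 in the same order, higher on replicate 2 in each group.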

How the data were processed

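The deposited values are array intensities, linear and 1 per array for 45101 probe sets, which the authors processed with GCOS, per the submitters' processing notes. Its version, summarization method and genome build were not given in the sources used here. The 6 arrays had equal mean intensity as deposited after the highest and lowest 2% were left out, and this scaling was kept.

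64 control probe sets were left out. Symbols came from the platform's annotation, updated through Entrez identifiers. Of the other probe sets 34945 had 1 gene listed, 932 several and 9160 were not listed, and 34741 matched the RefSeq table of GRCm38.p6. The probe set brightest on average stood for a gene, deposited intensities were taken to log2(signal + 16), and the lowest 40% of genes were left out, leaving 10916. All 6 arrays entered 1 fit in limma 3.58.1 under R 4.3.3, its variance following mean signal, and p-values were adjusted by Benjamini-Hochberg over all genes. The fit was tested on simulated data. Values of single probe sets beside the brightest come from a fit of 20967 probe sets. An exact test of 2 arrays against 2 cannot reach a two-sided p below 0.333. The median standard error of a log2 change was 0.231, and precision is limited by how few arrays there are.

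The members and lists were chosen with earlier results of these data known. All member probe sets are given. Named genes of the lists were those past the threshold without or with the block and the 2 with the largest change in each comparison against WT vehicle. Genes like Slc5a3 were the 5 with the highest Pearson r. Differences between replicates 1 and 2 correlated across genes between groups (r = 0.229, 0.234 and 0.150 for WT vehicle with KO vehicle, WT vehicle with ATL1222 and KO vehicle with ATL1222), so replicate number was taken to pair the arrays, although the labels name no shared batch, and blocked values stand where they change a call. The alternatives were 2 other normalizations, pseudocounts of 1 and 64, other filters, no variance trend, probe sets averaged or tested separately, only the arrays compared, the block, and each array left out. The receptor's own gene is not reported here.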

Additional observations from a re-analysis of the deposited data

How the results depend on the processing

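As the comparisons were used in the choice of genes, the values and counts given here for the transporters are a description. Slc5a3 was higher with ATL1222 than in WT vehicle under all 17 alternatives, at log2 1.08 to 1.496. Against KO vehicle it ran from 0.95 to 1.70. In the knockout it ran from -0.46 to 0.12, the positive value coming with probe sets averaged. The count of transporter genes past the threshold in KO vehicle against WT vehicle was 0 under every alternative. In WT ATL1222 against WT vehicle it was 1, but 0 with probe sets averaged, 0 without the variance trend, and 0 to 1 with an array left out. In WT ATL1222 against KO vehicle it was 1, 0 with probe sets averaged, 0 without the variance trend, 2 with the replicate block, and 1 with any array left out. Of the 129 related genes, the count in KO vehicle against WT vehicle was 0, and it was 2 with the replicate block and 0 to 1 with an array left out. In WT ATL1222 against WT vehicle it was 2, and it was 1 with a pseudocount of 1, 1 with no filter on dim genes, 0 with probe sets averaged, 0 without the variance trend, 1 with every probe set tested separately, 3 with the replicate block, and 0 to 3 with an array left out. In WT ATL1222 against KO vehicle it was 4, and it was 0 without the variance trend, 5 with the replicate block and 2 to 5 with an array left out.

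Counts over all genes were 3, 23 and 107 for the knockout, the agonist and the agonist against the knockout. They were 0, 3 and 44 with probe sets averaged, 0, 0 and 3 without the variance trend, 0, 18 and 80 with every probe set tested separately, and 9, 78 and 257 with the replicate block. For the agonist the count was 35 with cyclic loess, 35 with a filter of 60%, 40 with only the 4 arrays compared and 14 with no filter on dim genes, where the last comparison had 70. With an array left out the counts ran from 3 to 7, from 5 to 39 and from 39 to 132. With an array left out, the lone array of its group is assumed to vary like the others. Ighm, a B cell marker, changed sign between ATL1222 and KO vehicle with probe sets averaged, at log2 0.0056. The causes of these shifts were not tested. Slc7a5 had values in the fit with no filter alone, and no alternative background correction could be run on values already processed. The replicate block changed no call among the transporters other than that of Slc3a2 named above. Signals near the limit for dim genes, as for the dimmer probe sets of Slc5a3, bound what can be said of them.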
